A study of Mus musculus with 8 samples.

Results

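The lysyl oxidase family comprises 5 genes in the mouse, Lox and its paralogs Loxl1, Loxl2, Loxl3 and Loxl4, and its members were found here by the gene symbol that the array annotation gives to a probe set. Of these 5 genes, 4 had a probe set that carries their symbol alone (Lox, Loxl1, Loxl3 and Loxl4), out of 22180 genes measured in this way. Where a gene has several such probe sets, 1 is selected on the highest mean over the 8 arrays, but each of the 4 had a single one, so this value decided nothing. The 2 probe sets annotated to Loxl2 also carry the symbol Gm21451, and no value is given for Loxl2. All 4 measured members passed the filter on low signals and were tested among 15086 genes. The family was chosen by its enzyme type with the knockout-control difference in Lox already known from these arrays, so the differences below describe the hearts and are not independent support for a change of the family.

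Lysyl oxidases are copper-dependent amine oxidases that leave the cell and act in the extracellular matrix. They oxidise lysine residues of collagen and elastin to reactive aldehydes, which condense into the covalent cross-links that make fibres insoluble and stiff. LOX and LOXL1 are made as proenzymes with a propeptide that is cut off outside the cell, whereas LOXL2, LOXL3 and LOXL4 carry scavenger receptor domains in front of the same type of catalytic domain. In the pressure-loaded heart, collagen cross-linking is known as a part of fibrosis that stiffens the ventricle.

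The tissue was labelled heart, from male C57Bl6N mice, and was harvested 1 week after transverse aortic constriction (TAC). In this operation the aortic arch is narrowed, so that the left ventricle pumps against a higher pressure. There were 4 hearts with a CITED4 knockout and 4 hearts labelled floxed control, a term for an allele flanked by recombination sites. Every heart of either genotype had undergone TAC, so no unoperated heart stands beside them. The sources used here do not name the Cre driver, the Cre status of the controls or the assignment of animals to litters or array runs. The p-values therefore measure the spread between these samples, and the small number of arrays limits their precision.

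The deposited values are log2 probe set signals, with array medians between 4.29 and 4.33 and correlations between arrays of at least 0.979. Cited4, the targeted transcriptional co-regulator gene, had signals of 5.26, 5.15, 4.83 and 5.02 in knockout hearts, against 5.89, 5.76, 6.05 and 6.22 in control hearts, with no overlap. The position of its probes relative to the deletion was not known here, so the remaining signal is not read as transcript. The cardiomyocyte genes Myh6 and Atp2a2 were among the high signals in all hearts, as the label heart implies, with Myh6 at 11.64 ± 0.28 in knockout and 11.99 ± 0.07 in control hearts (log2, SD, n = 4 each). In the limma fit over all genes 0 of 15086 passed an adjusted p of 0.05 (percent called 0), and 1697 (11.2%) had an unadjusted p under 0.05. For 789 genes (5.23%) all hearts of one genotype lay on one side of all hearts of the other.

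Lox and Loxl3 had the widest differences of the family, both toward higher average signals in the knockout hearts, and Loxl1 and Loxl4 differed by less. None of the 4 passed over all genes with limma (0 of 4 at an adjusted p of 0.05). At an unadjusted p under 0.05 there were 2 of 4, Lox and Loxl3, beside 5.64% of all genes tested that were higher and 5.61% that were lower at this level. In 0 of 4 did the groups separate without overlap. In all 4 the knockout mean was the higher, beside 51.2% of all genes tested.

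Lox encodes the founding enzyme of the family, which acts on fibrillar collagen and on elastin. Its signals were 10.15, 8.49, 7.99 and 9.91 in knockout replicates 1 to 4, against 8.81, 7.03, 7.07 and 7.65 in control replicates 1 to 4 (log2). Knockout replicates 1 and 4 lay above every control, while knockout replicates 2 and 3 lay below control replicate 1 and above the other controls. The group means were 9.13 ± 1.06 in knockout and 7.64 ± 0.83 in control hearts (SD, n = 4 each), a difference of 1.50 ± 0.52 (SE, 95% interval 0.33 to 2.66). On the linear scale this is 2.82-fold, with an interval of 1.26-fold to 6.32-fold. The limma p was 0.0170 and the p adjusted over all genes 0.421. A log2 difference of at least 1 toward the knockout was seen in 26 genes in all (0.172%), and Lox ranked 4th by difference.

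Loxl3 encodes a paralog with scavenger receptor domains that is required in mice for palate and spine formation. Its signals were 8.90, 7.01, 6.52 and 8.33 in knockout replicates 1 to 4, against 7.60, 5.87, 5.72 and 6.31 in control replicates 1 to 4 (log2). The order of the hearts was that of Lox, except that control replicates 2 and 3 changed places at the low end. The means were 7.69 ± 1.11 in knockout and 6.38 ± 0.85 in control hearts (SD, n = 4 each), a difference of 1.31 ± 0.55 (SE, 95% interval 0.10 to 2.53), or 2.49-fold. The limma p was 0.0365, with an adjusted p of 0.431.

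Loxl1 encodes the paralog tied to elastic fibre upkeep, and mice that lack it fail to renew elastic fibres. Its signals were 9.26, 8.63, 8.17 and 8.87 in knockout replicates 1 to 4, against 8.85, 8.11, 8.13 and 8.17 in control replicates 1 to 4 (log2). Control replicate 1 again lay among the knockout hearts, and knockout replicate 3 lay level with the other 3 controls. The means were 8.73 ± 0.46 in knockout and 8.31 ± 0.35 in control hearts (SD, n = 4 each), a difference of 0.42 ± 0.23 (SE, 95% interval -0.10 to 0.93). The limma p was 0.102, with an adjusted p of 0.508. Without knockout replicate 1 the difference was 0.24.

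Loxl4 encodes another paralog with scavenger receptor domains. Its signals were 5.58, 4.64, 5.06 and 5.10 in knockout replicates 1 to 4, against 5.06, 5.08, 4.97 and 4.85 in control replicates 1 to 4 (log2). Knockout replicate 1 was the highest heart and knockout replicate 2 the lowest, so the knockout hearts lay on both sides of all controls. The difference was 0.11 ± 0.17 (SE, 95% interval -0.26 to 0.47), with a limma adjusted p of 0.833. It changed sign without knockout replicate 1 (-0.055) and was larger without knockout replicate 2 (0.26 ± 0.13). A change of up to 1.39-fold toward the knockout lies within the interval with all arrays, so the data do not show that Loxl4 was alike in both genotypes.

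**Figure D1:**
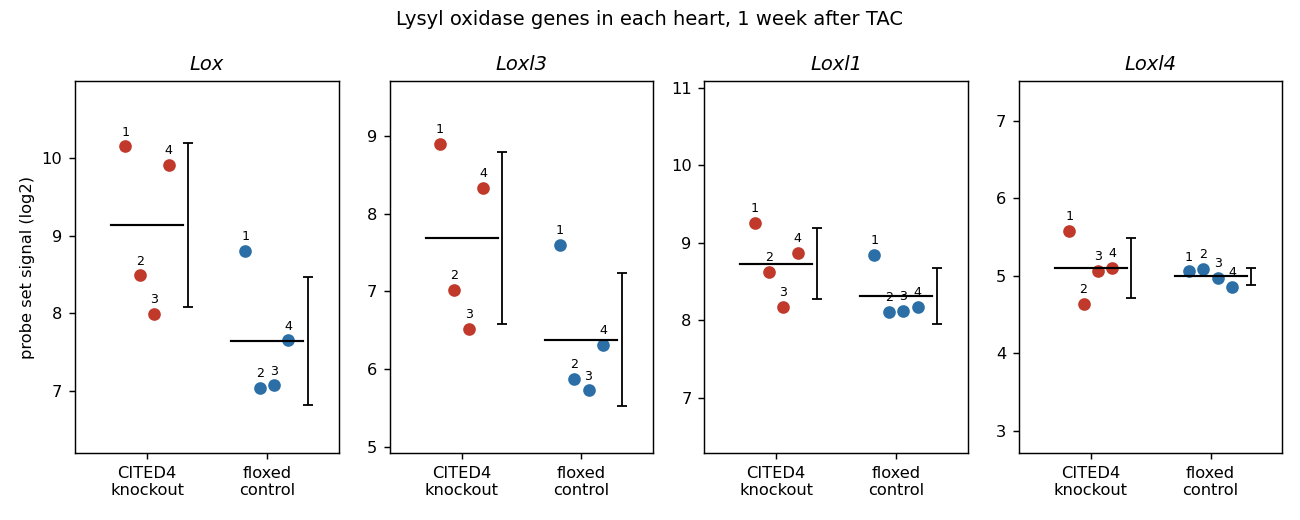
Probe set signal (log2) of Lox, Loxl3, Loxl1 and Loxl4 in each heart, with knockout hearts (red) left of control hearts (blue), the replicate number above each point, the group mean as a line and the SD as a bar (n = 4 each). All panels span the same number of log2 units, and in the panels of Lox and Loxl3 knockout replicates 1 and 4 stand above every control while control replicate 1 stands above knockout replicates 2 and 3.

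For Lox and Loxl3 the range among hearts of a single genotype was wider than the difference between the genotype means. Lox ranged over 2.16 (log2) among knockout hearts and over 1.77 among control hearts, and Loxl3 over 2.38 and 1.88. By the SD over all 8 arrays Lox ranked 12th and Loxl3 14th among the 15086 genes tested, so these were among the most variable genes of the hearts. Loxl1 ranked 328th and Loxl4 1881st. Loxl1 covered 1.09 among knockout hearts and 0.73 among control hearts.

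The sizes of the Lox and Loxl3 differences depended on which hearts were included. Without knockout replicates 1 and 4 together, which are the highest for both genes, the difference was 0.60 ± 0.46 for Lox, 0.39 ± 0.48 for Loxl3, 0.084 ± 0.23 for Loxl1 and -0.14 ± 0.13 for Loxl4 (log2, SE, 2 knockout against 4 control hearts). Smaller differences without the highest knockout hearts follow from that choice. Without knockout replicate 1 or without knockout replicate 4, 0 of 4 members kept an unadjusted limma p under 0.05, where the share over all genes tested was also lower, 6.54% and 7.01%. The Lox differences there were 1.16 and 1.24, and those of Loxl3 0.91 and 1.10. Leaving out control replicate 1 gave larger values. Without it the differences were 1.88 ± 0.49 for Lox and 1.72 ± 0.50 for Loxl3, and the knockout values of these 2 genes no longer overlapped the remaining controls, as was the case for 14% of all genes tested without that array. Their limma adjusted p-values there were both 0.262.

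**Figure D2:**
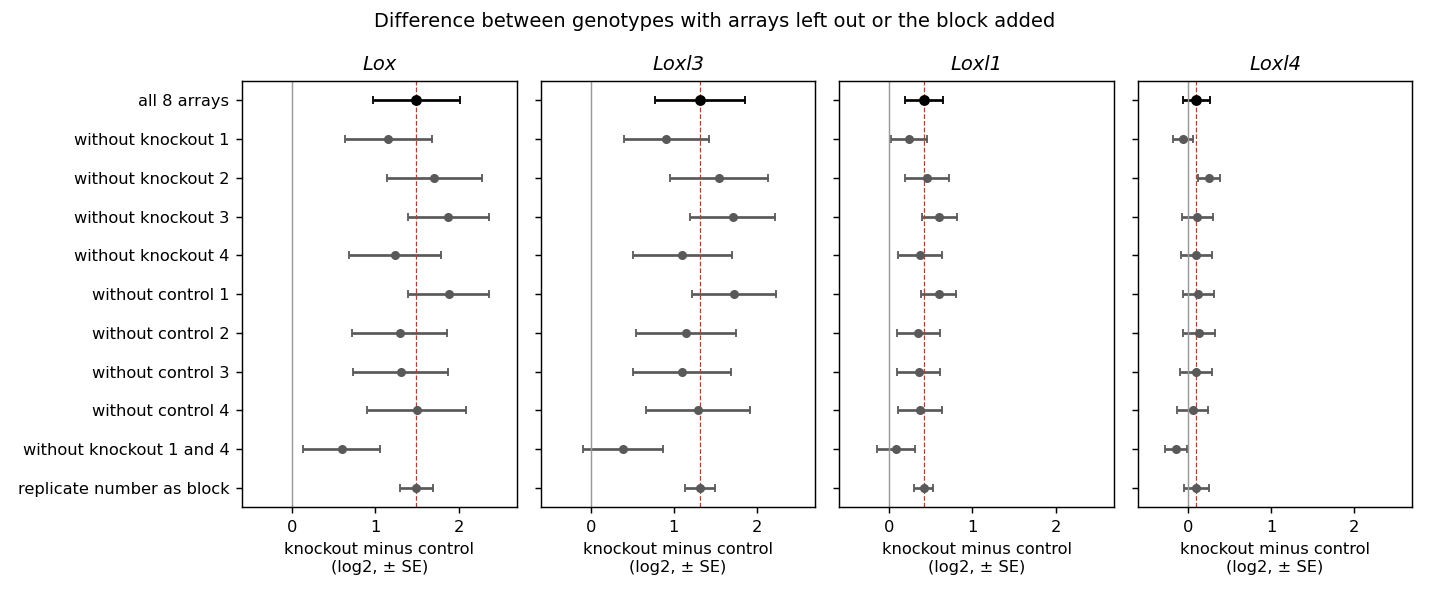
Difference between knockout and control hearts (log2, points, with the SE as bars) for Lox, Loxl3, Loxl1 and Loxl4 with all 8 arrays, with each array left out, without knockout replicates 1 and 4 together, and with the replicate number as a block. The red dashed line marks the value with all arrays. The Lox difference was lowest without knockout replicates 1 and 4 (0.60) and highest without control replicate 1 (1.88).

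Across the 8 hearts Lox, Loxl3 and Loxl1 varied together, and Loxl4 followed them less closely. Lox and Loxl3 had a Pearson correlation of 0.99 (exact permutation p = 4.96e-05) and a Spearman correlation of 0.98 (exact permutation p = 3.97e-04). Lox and Loxl1 had r = 0.94 (exact permutation p = 7.44e-05) and rho = 0.98 (exact permutation p = 3.97e-04), and Loxl1 and Loxl3 had r = 0.97 (exact permutation p = 9.92e-05) and rho = 0.95 (exact permutation p = 1.14e-03). After adjustment over the 18 relations computed, these 3 pairs had the same adjusted permutation p for r, 1.98e-04. With knockout replicates 1 and 4, the hearts farthest from the median, left out, r was 0.98 for Lox with Loxl3, 0.90 for Lox with Loxl1 and 0.94 for Loxl1 with Loxl3.

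The same pairs varied together inside the genotypes. After each group's mean was subtracted, r was 0.99 for Lox with Loxl3, 0.94 for Lox with Loxl1 and 0.96 for Loxl1 with Loxl3. An exact permutation of the hearts inside each genotype gave p = 3.47e-03, 1.74e-03 and 3.47e-03 for these pairs (adjusted p = 6.94e-03 for each), where 1.74e-03 is the smallest it can give. The deviations of Lox and Loxl3 from their own means differed with an SD of only 0.15 (log2) over the 8 hearts, whereas those of Lox and Loxl1 differed with an SD of 0.79, since Loxl1 moved by smaller steps.

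Loxl4 gave r = 0.53 with Lox (exact permutation p = 0.182, 0.205 after adjustment), 0.55 with Loxl1 (exact permutation p = 0.165, 0.198 after adjustment) and 0.59 with Loxl3 (exact permutation p = 0.124, 0.172 after adjustment). The rank correlations were rho = 0.43, 0.36 and 0.50, with exact permutation p-values of 0.299, 0.389 and 0.216. Leaving out knockout replicates 1 and 4 gave r of -0.30, -0.27 and -0.20, so the positive sign rested on those hearts. The pattern of Lox was also seen outside the family: 480 of the other 15085 genes tested correlated with Lox above 0.9, at a median r over all genes of 0.0012. Of these, 300 also did so after the group means were subtracted.

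**Figure D3:**
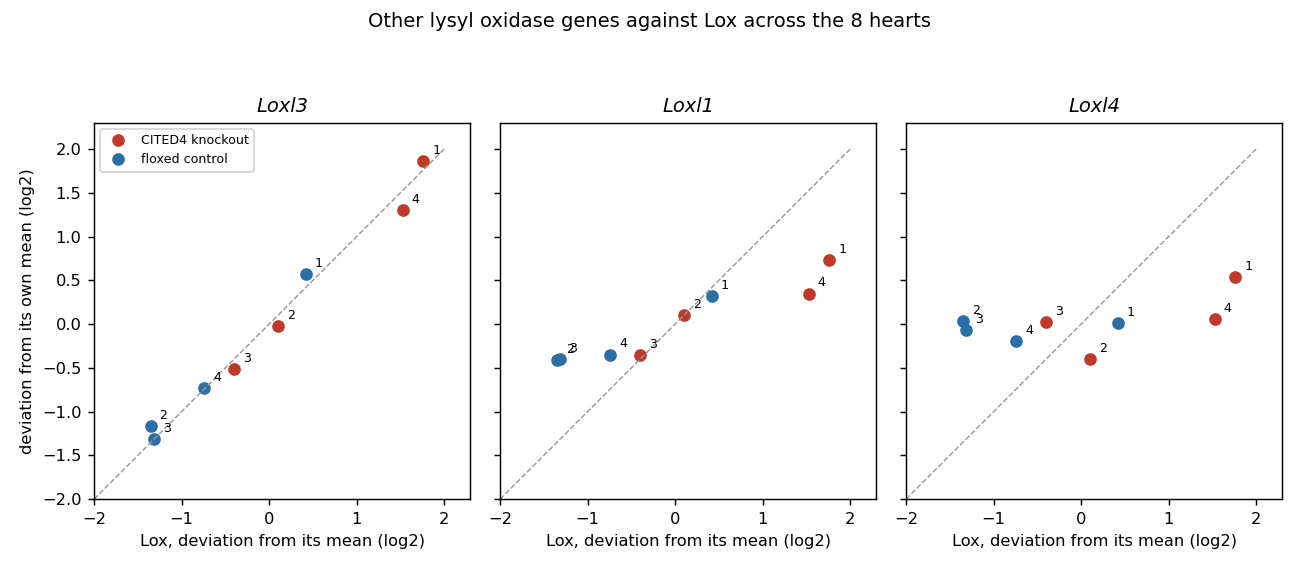
Deviation from the gene's own mean over the 8 hearts (log2) for Loxl3, Loxl1 and Loxl4 (vertical axes) against that of Lox (horizontal axis), with knockout hearts in red, control hearts in blue, replicate numbers beside the points and equal deviations as a dashed line. Loxl3 lies along the dashed line (r = 0.99), Loxl1 along a flatter line (r = 0.94), and the deviations of Loxl4 stay between -0.40 and 0.54 (r = 0.53).

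The genes most like Lox over the 8 arrays, by Pearson's r and with no test, were Fat1 (0.997), Col6a1 (0.995), Cyb5r3 (0.994), Loxl3 (0.993), Rcn3 (0.993), Ccn5 (0.992), Tmem45a (0.991) and Anxa3 (0.990). Fat1 encodes an atypical cadherin, Col6a1 a chain of the microfibrillar collagen VI, Rcn3 a calcium-binding protein of the endoplasmic reticulum, and Ccn5 a matricellular protein. Loxl3 was thus the fourth most similar of 15085 genes, while Loxl1 ranked 217th and Loxl4 3158th. After the group means were subtracted the closest 8 were Fat1, Cyb5r3, Dst, Loxl3, Col6a1, Rcn3, Ddah1 and Thbs1, with r from 0.989 for Thbs1 to 0.996 for Fat1. The most opposed patterns were those of Chordc1 (-0.994), Fbf1 (-0.992), Hccs (-0.990), which encodes the enzyme that attaches haem to cytochrome c, and Dnaja3 (-0.989), a mitochondrial co-chaperone gene.

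Fat1, the closest, was at 8.34 ± 0.53 in knockout and 7.53 ± 0.41 in control hearts (log2, SD, n = 4 each), a difference of 0.81 ± 0.27 (SE) with a limma adjusted p of 0.421. Dst, a cytoskeletal linker gene, matched Lox closely inside the genotypes (r = 0.994) and had a difference of 0.052 ± 0.10 (95% interval -0.18 to 0.28, limma adjusted p = 0.873), which became -0.0023 without knockout replicate 1 and -0.089 without knockout replicates 1 and 4.

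Among the substrates of the enzymes, the main fibrillar collagen genes of the heart varied with Lox, Loxl3 and Loxl1. Col1a1 had signals of 11.06, 9.80, 9.07 and 10.51 in knockout hearts, against 10.20, 8.93, 8.80 and 9.10 in control hearts (log2, replicates 1 to 4). The ranking of the hearts was close to that of Lox, with knockout replicates 1 and 4 on top and control replicate 1 next. Over the 8 hearts Col1a1 correlated with Loxl1 at r = 0.99 (exact permutation p = 7.44e-05, adjusted p = 1.98e-04), with Loxl3 at r = 0.99 (exact permutation p = 4.96e-05, adjusted p = 1.98e-04) and with Lox at r = 0.97 (exact permutation p = 9.92e-05, adjusted p = 1.98e-04), with rho between 0.95 and 0.98 (adjusted exact permutation p from 1.02e-03 to 1.87e-03). These were 0.99, 0.97 and 0.93 without knockout replicates 1 and 4, and 0.99, 0.99 and 0.97 after subtraction of group means. Col3a1, the second main fibrillar collagen gene, gave r of 0.96 with Loxl1, 0.99 with Loxl3 and 0.98 with Lox (adjusted exact permutation p = 1.98e-04 for each), and its ranking of the hearts was identical to that of Loxl3 (rho = 1.00).

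Of the 11 fibrillar collagen genes tested, 8 were higher and 3 lower in the knockout means, with a median difference of 0.55 beside 0.00 over all genes tested. An unadjusted limma p under 0.05 was reached by 3, Col5a1 (0.59 ± 0.18), Col3a1 (0.62 ± 0.26) and Col1a2 (0.88 ± 0.39), and 0 passed over all genes. The smallest differences, of genes named after their values were seen, were those of Col2a1 (-0.0029 ± 0.089), the collagen of cartilage, and Col24a1 (-0.00082 ± 0.091). The median of the list was 0.26 without knockout replicate 1 and 0.015 without knockout replicates 1 and 4. Beside the counts of this list and of those below stand the shares of all genes tested. A higher knockout mean was found for 51.2%, and at an unadjusted limma p under 0.05 5.64% were higher and 5.61% lower.

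Eln encodes elastin, the other substrate. It had signals of 7.62, 7.42, 6.84 and 7.49 in knockout hearts, against 7.38, 6.75, 6.09 and 6.81 in control hearts (log2, replicates 1 to 4). Control replicate 3 was the lowest heart by a wide gap, and control replicate 1 lay among the knockout hearts. Its correlations were r = 0.88 with Lox (exact permutation p = 3.17e-03, adjusted p = 5.71e-03), 0.87 with Loxl1 (exact permutation p = 4.51e-03, adjusted p = 6.77e-03) and 0.88 with Loxl3 (exact permutation p = 3.60e-03, adjusted p = 5.88e-03), with rho of 0.95, 0.93 and 0.98 (adjusted exact permutation p from 1.02e-03 to 3.35e-03). Without control replicate 3 and knockout replicate 1, the hearts farthest from the median of Eln, r was 0.88, 0.97 and 0.90. After subtraction of group means it was 0.80, 0.82 and 0.82. By r with Lox over the 8 hearts, Eln ranked 637th among the other 15085 genes tested, Col1a1 70th and Col3a1 34th. Many genes that are not substrates thus followed Lox more closely than Eln did. With Loxl4, the 3 substrates gave r of 0.56 (Col1a1), 0.49 (Col3a1) and 0.29 (Eln), with adjusted exact permutation p-values of 0.190, 0.231 and 0.486.

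Of 15 elastic fibre genes tested, 12 were higher and 3 lower in the knockout means (median 0.45). An unadjusted limma p under 0.05 was reached by 9, all of them higher, beside 5.64% of all genes tested. Mfap4 (0.71 ± 0.18), Mfap5 (0.43 ± 0.12) and Mfap2 (0.51 ± 0.17) encode microfibril-associated proteins, and Fbln2 (0.42 ± 0.18) a fibulin. With limma 0 passed over all genes. The median was 0.15 without knockout replicates 1 and 4.

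The proteins that process and position lysyl oxidase had higher average signals for 10 of the 11 genes tested, with a median of 0.43. Bmp1 encodes the procollagen C-proteinase that also releases the LOX propeptide, and Pcolce its enhancer. Bmp1, named for this role, differed by 0.35 ± 0.17. Pcolce had signals of 7.93, 7.59, 7.58 and 7.81 in knockout hearts, against 7.50, 7.08, 7.19 and 7.42 in control hearts (log2), with no overlap and a difference of 0.43 ± 0.12. Fn1 encodes fibronectin, which binds LOX, and it differed by 1.17 ± 0.52. Fbln5, which encodes a fibulin that brings LOXL1 to elastic fibres, differed by 0.89 ± 0.38, and Postn, whose product periostin helps BMP1 to act on LOX, by 0.56 ± 0.21. An unadjusted limma p under 0.05 was reached by 5 genes, all higher, beside 5.64% of all genes tested, and 0 passed over all genes. Without knockout replicates 1 and 4 the median was 0.20.

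Collagen is modified and folded before it leaves the cell by enzymes and chaperones, of which only some act on lysines. Of the 16 genes of this list tested, 15 were higher on average (median 0.28). Plod2, which encodes the lysyl hydroxylase of the collagen telopeptides, had signals of 8.51, 7.81, 7.55 and 8.63 in knockout hearts, against 7.99, 7.29, 7.49 and 7.32 in control hearts (log2), a difference of 0.60 ± 0.25. Knockout replicates 1 and 4 and control replicate 1 were again the highest hearts. P4hb, a subunit of prolyl 4-hydroxylase, differed by 0.42 ± 0.14, Ppib, a collagen prolyl isomerase gene, by 0.30 ± 0.11, and Colgalt1, which encodes a galactosyltransferase acting on hydroxylysine, by 0.27 ± 0.10. An unadjusted limma p under 0.05 was reached by 5, all higher, beside 5.64% of all genes tested, and 0 passed over all genes. The median was 0.12 without knockout replicates 1 and 4. Other genes of the list that act on lysine or hydroxylysine, named after their values were seen, differed by less than Plod2. Plod1 differed by 0.035 ± 0.081, and Colgalt2, the 1 gene that was lower, by -0.095 ± 0.16.

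Genes that supply copper, the cofactor of the family, had small differences. Higher knockout means were seen for 7 of the 11 tested and lower ones for 4, at a median difference of 0.01, a range of -0.15 to 0.25, and 0 at an unadjusted limma p under 0.05. Atp7a, which encodes the pump that loads copper onto secreted enzymes, differed by 0.09 ± 0.10, and Atox1, its chaperone, by 0.15 ± 0.16. The largest value was that of Mt2, a metallothionein gene, at 0.25 ± 0.20. Among the lower genes, Steap4 differed by -0.15 ± 0.12 and Cp, which had the smallest p of the list, by -0.13 ± 0.08. Atp7a is named here after its values were seen, for its role in loading lysyl oxidases.

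TGF-beta and hypoxia are known to raise LOX transcription, and genes of both pathways were counted. Of 18 genes of TGF-beta signalling tested, 13 were higher and 5 lower (median 0.12, 0.20 without knockout replicate 3 and 0.033 without knockout replicates 1 and 4). At an unadjusted limma p under 0.05, 5 were higher and 1 lower, beside 5.64% and 5.61% of all genes tested. Ccn2 (1.01 ± 0.28), a TGF-beta target, and Tgfb2 (0.87 ± 0.23) and Inhba (0.76 ± 0.23), both ligand genes, had the widest differences, and Tgfbr2, a receptor gene, differed by 0.30 ± 0.10. Of 14 HIF and hypoxia genes 6 were higher and 8 lower (median -0.02). Slc2a1, a glucose transporter gene, differed by 0.39 ± 0.14 and Car9, a carbonic anhydrase gene, by 0.24 ± 0.11, whereas Egln1, the oxygen-sensing prolyl hydroxylase gene, differed by -0.32 ± 0.10, with no overlap, and Adm, the adrenomedullin gene, by -0.26 ± 0.14. In both lists 0 passed over all genes with limma.

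**Figure D4:**
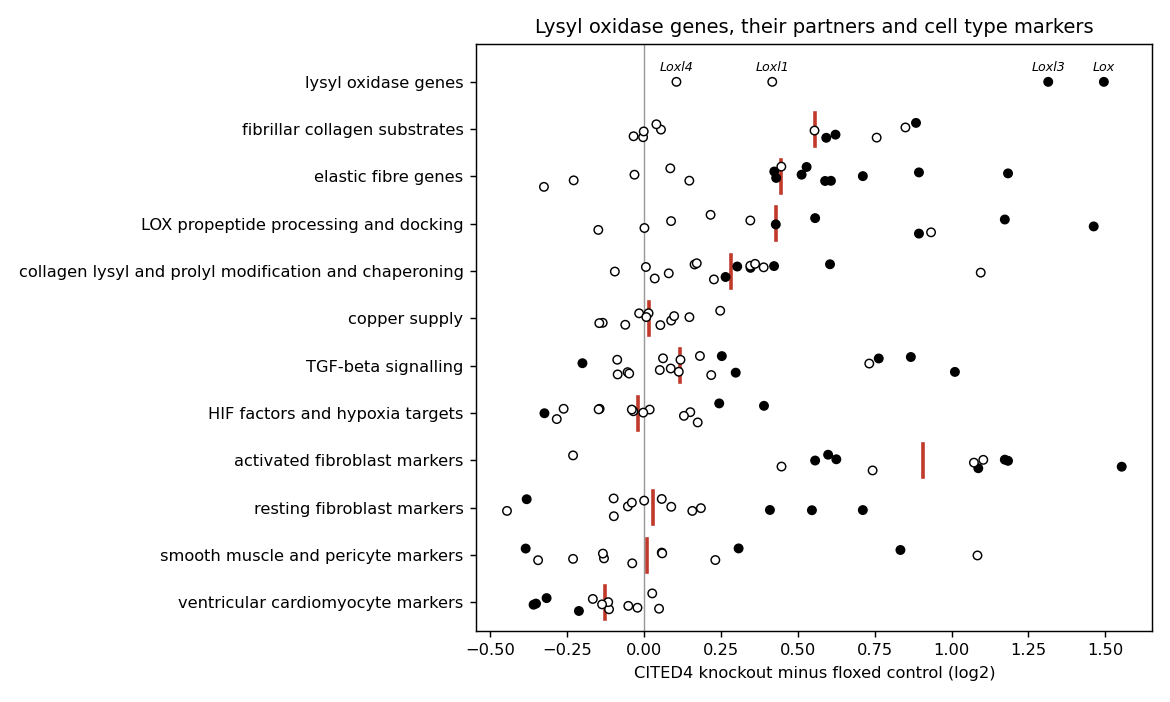
Difference between knockout and control means (log2) for the 4 lysyl oxidase genes and for each tested gene of the lists of substrates, partners, upstream pathways and cell type markers, 1 point per gene (filled where the unadjusted limma p was under 0.05), with the median of each list as a red bar. The medians of fibrillar collagens (0.55), elastic fibre genes (0.45) and processing partners (0.43) lie right of 0, and those of copper supply (0.01) and hypoxia genes (-0.02) lie near it.

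Cell type markers were set beside these values, since in heart tissue fewer cells of a type and less RNA per cell cannot be told apart. Of 12 activated fibroblast markers tested 11 were higher in the knockout means (median 0.91, and 0.31 without knockout replicates 1 and 4), among them Cthrc1 (1.55 ± 0.59), Thbs4 (1.09 ± 0.43), Meox1 (0.63 ± 0.16) and Postn. The 1 that was lower was Acta2 (-0.23 ± 0.25), which is also in the list of smooth muscle and pericyte markers. The mean deviation of the activated fibroblast list from its average ran from -0.39 to 1.00 in knockout hearts and from -0.88 to 0.45 in control hearts (log2). Its highest hearts were knockout replicates 4 and 1, then control replicate 1, which were also the 3 highest in Lox. The mean over the resting fibroblast markers covered a narrow range, -0.04 to 0.15 in knockout and -0.17 to 0.06 in control hearts. Of these markers 8 of 14 were higher, with a median of 0.03. Single genes of the list went both ways, with differences from -0.45 to 0.71. At an unadjusted limma p under 0.05, 3 were higher and 1 lower, beside 5.64% and 5.61% of all genes tested. Among the 14, Mfap4, which is also in the list of elastic fibre genes, differed by 0.71 ± 0.18. Tcf21, a fibroblast transcription factor gene, differed by 0.55 ± 0.20, Col15a1 by 0.41 ± 0.18 and Scara5 by -0.38 ± 0.15.

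Smooth muscle and pericyte markers, from cells that also make elastic fibres, ran from -0.19 to 0.24 in knockout and from -0.24 to 0.15 in control hearts, with 6 of 12 higher and a median of 0.01. Tagln differed by 0.83 ± 0.34 and Cspg4 by 0.31 ± 0.13, whereas Kcnj8 differed by -0.38 ± 0.16 and Abcc9 by -0.34 ± 0.16. Macrophage and monocyte markers ran from -0.06 to 0.32 in knockout and from -0.29 to 0.12 in control hearts (12 of 14 higher, median 0.19, and 0.10 without knockout replicate 1). Of these 14, 0 had an unadjusted limma p under 0.05, beside 11.2% of all genes tested. Endothelial markers ran from -0.17 to 0.19 in knockout and from -0.02 to 0.09 in control hearts (4 of 12 higher, median -0.03), with 1 lower at that p. The cardiomyocyte markers listed as ventricular were lowest in knockout replicates 1 (-0.17) and 4 (-0.16), the hearts highest in Lox. In the knockout means 10 of 12 were lower (median -0.13, and -0.083 without knockout replicate 1). An unadjusted limma p under 0.05 was reached by 4, all lower, beside 5.61% of all genes tested. The groups did not overlap for 2 of the 12, beside 5.23% of all genes tested in either direction. Valve and cartilage-type markers were at 0.48, 0.07, -0.25 and 0.45 in knockout replicates 1 to 4, against 0.15, -0.39, -0.25 and -0.26 in control replicates 1 to 4, with the same 3 hearts on top as for Lox. Of the 9 listed, Chad, Matn3 and Cnmd were below the filter, and 5 of the 6 tested were higher (median 0.052). The 1 with an unadjusted limma p under 0.05 was the small proteoglycan gene Fmod (1.46 ± 0.65), which is also in the list of processing partners. Fmod was at 7.64 in control replicate 1, with the next control at 5.54 (log2). The mean of the list without Fmod was not computed. Endocardial markers ran from -0.31 to 0.33 in knockout and from -0.37 to 0.10 in control hearts (4 of 6 higher, median 0.094), with 2 at an unadjusted limma p under 0.05, the growth factor gene Nrg1 (0.98 ± 0.29) and Plvap (0.67 ± 0.28). The part of these cell types in the differences of the family was not tested. Knockout replicate 2 stood apart in atrial markers (1.59, against 0.12 at most in the other hearts). Its signals were 9.02 for Myl7 and 9.31 for Sln, against at most 5.04 and 4.98 in the other hearts (log2). Whether the samples differed in the atrial tissue they held was not tested. Without knockout replicate 2 the differences were 1.71 for Lox, 1.54 for Loxl3, 0.45 for Loxl1 and 0.26 for Loxl4. None of the genes of these lists passed over all genes with limma (0 in each).

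**Figure D5:**
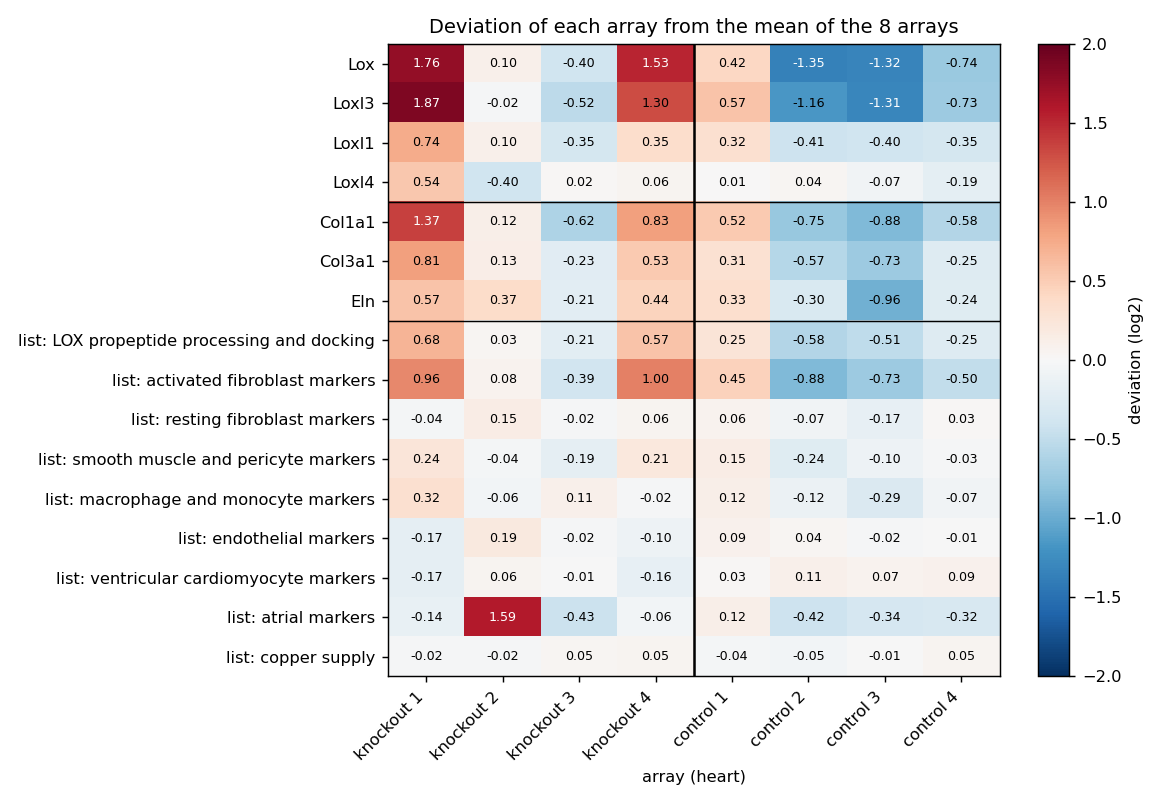
Deviation of each heart from the mean of the 8 hearts (log2, colour and printed value) for the 4 lysyl oxidase genes, 3 substrate genes and the mean over the genes of 9 lists, with knockout replicates left of control replicates. Lox, Loxl3, the collagens and the activated fibroblast list are highest in knockout replicates 1 and 4 and lowest in control replicates 2 and 3. The means of the resting fibroblast and copper supply lists change little from heart to heart, which does not hold for every gene in them.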

How the data were processed

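The authors deposited log2 probe set signals of 8 arrays (41345 probe sets). RMA and limma are named, with no version, per the submitters' processing notes. Genome build and array batches were not given in the sources used here, and no coordinates are printed. Because RMA equalises the arrays' distributions, a common shift of all genes would not show.

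The array annotation left 16010 probe sets without a symbol and gave 1814 more than 1 symbol and 23521 exactly 1. Symbols were updated through Entrez identifiers in the RefSeq table (23328 matched). Each of 22180 genes was represented by its probe set of highest mean, and the 15086 genes at or above the 40th percentile of probe set means (3.80, log2) were tested. Knockout minus control was fitted with limma 3.58.1 (lmFit and eBayes, R 4.3.3) and Benjamini-Hochberg adjustment over all genes tested, threshold 0.05 and moderated standard errors. The limma step was tested on simulated data with independent noise in each gene. There it recovered 52% of changes of 0.5 and 97% of changes of 1 (log2), with 6 false calls. In the real hearts many genes varied together, so these shares do not give the power in these data. Correlations across hearts have exact two-sided permutation tests, with 18 relations adjusted together.

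The members, gene lists and tests were chosen with earlier results of these arrays known, and several lists share genes. Named genes were the members, Cited4, 3 substrates, up to 4 genes per described list with the smallest p, and the genes most like Lox (the 8 highest and 4 lowest by r, and the 8 highest with group means subtracted). Same-numbered hearts of the 2 genotypes had correlations of deviations of 0.36, 0.01, 0.28 and -0.03. Differently numbered hearts were not compared, so these values cannot decide whether the numbers mark pairs. The sources used here give no pairing, and the numbers were not treated as pairs. Alternatives were other filters, normalizations, probe set averages and variance models, array weights, a replicate block and leaving out arrays.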

Additional observations from a re-analysis of the deposited data

Results flagged for a closer look

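In 3 of 130 sets of 4 hearts examined (2.31%), a single heart lay farther from the others than Dixon's critical value allows, where chance flags about 5% of sets. All 3 were control replicate 1 on the high side. Loxl1 was at 8.85 there, with the next control at 8.17, Fbln5 at 8.50 with the next at 7.37, and Colgalt1 at 7.59 with the next at 7.43 (log2). Lox (8.81) and Loxl3 (7.60) were also highest among controls in that heart without passing the critical value.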

How the results depend on the processing

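Under 17 alternatives limma called 0 genes over all genes, and the differences of Lox (0.60 to 1.88), Loxl3 (0.39 to 1.72) and Loxl1 (0.084 to 0.60) kept their direction. Loxl4 changed sign without knockout replicates 1 and 4 (-0.14) and ranged from -0.055 to 0.26 with 1 array left out. The members at an unadjusted limma p under 0.05 were 2 with all arrays, 0 to 3 with 1 array left out, 3 with the replicate block, 1 with trend and robust estimation and 0 without knockout replicates 1 and 4. The share of all genes tested at that level was 11.2% with all arrays, 6.54% to 15.8% with 1 array left out, 14.4% with the block, 11.8% with trend and robust estimation and 4.09% without knockout replicates 1 and 4. Members without overlap were 0 with all arrays, where the share of all genes tested was 5.23%. With 1 array left out they were 0 to 2, where the share was 6.89% to 14%. The count of 2 was found without control replicate 1, at the share of 14%. Without knockout replicates 1 and 4 the count was 0, at a share of 12.4%. Fewer arrays also lower the power of a test. The median of fibrillar collagens was 0.015, that of elastic fibre genes 0.15 and that of endothelial markers 0.098 without knockout replicates 1 and 4, and Dst changed sign there (-0.089) and ranged from -0.0023 (without knockout replicate 1) to 0.12 with 1 array left out. With the replicate number as a block, the SE of Lox was 0.19, of Loxl3 0.18 and of Loxl1 0.11, against 0.52, 0.55 and 0.23 without the block. In the fit with the block 0 genes were called, and the limma adjusted p-values were 0.125, 0.125 and 0.191. The check of same-numbered hearts cannot decide whether the numbers mark pairs. The causes of these shifts were not tested. No scanner files or detection calls were used here, so signal over background is not known.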
